A study of Mus musculus with 2 samples.

Results

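The gene set described here holds the ligands, receptors and intracellular proteins of the Wnt and beta-catenin pathway. Its members are 35 genes given as a list of symbols, out of 21360 genes named on the arrays. For each gene, every non-control probe whose transcript identifier maps to the symbol was taken, which gave 49 probes on 51 spots, with none lost to outlier flags.

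The cells were LSK cells, the bone marrow fraction without mature lineage markers that carries Sca-1 and c-kit and contains hematopoietic stem and early progenitor cells. A 1-colour Agilent array (Cy3) held RNA from nondiabetic C57BL/6J mice and another held RNA from C57BL/6J mice made diabetic with streptozotocin (STZ), a toxin of pancreatic beta cells. The labels give 3 mice and 8.3 ng of amplified total RNA for each array, so mice of a group were averaged into 1 value, and call the mice female, while the study's text speaks of male mice without tying this to the array samples. Neither age nor duration of diabetes is given in the labels.

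Wnt proteins are secreted ligands that bind Frizzled receptors and the co-receptors Lrp5 and Lrp6 at the cell surface. Without ligand, a destruction complex built on Axin and Apc lets the kinases Csnk1a1 and Gsk3 mark beta-catenin for degradation. With ligand, Dishevelled proteins help to block that complex, and beta-catenin enters the nucleus and binds TCF/LEF factors on DNA. In blood, the pathway has been studied for its part in stem cell self-renewal and in early lymphocyte development.

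Intensities below are those of the scanner software, before scaling, and log2 ratios are diabetic over nondiabetic after each array's 75th percentile (168 nondiabetic, 182 diabetic) was set equal. A probe of equal intensity on both arrays therefore has a slightly negative log2 ratio. Where the signal was well above background on just 1 array, the ratio is a bound, written "at least N-fold". The bound is taken against the dim array's lowest intensity well above background (10.2 nondiabetic, 10.1 diabetic) or the dim probe's own value if higher. No bound was given for 26 genes of this kind by brightest probe (0 of them members) and for 72 probes. Probes without such a signal on either array are called dim and are given no fold. The ± value after a log2 ratio is the error the scanner software assigned to the spots, carried to log2. It leaves out differences between mice, sorts and amplifications. Across 236 probes with at least 5 measured spots, repeat spots of a probe had a median SD of 0.13 in log2 ratio, which was 0.24 for the dimmest probes and 0.07 for the brightest. With 1 array per group there was no replicate check and no test, and the number of arrays limits the precision. Both arrays shared 1 slide and 1 scan.

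By the brightest probe of each gene, 20 of the 35 members were well above background on both arrays, 4 on 1 array and 11 on neither. Of the 24 with a ratio or bound, Apc and Ctnnbip1 (2 genes, 8.33%) lay at least 2-fold higher in the diabetic LSK cells. Fzd6, Fzd8, Fzd9 and Dvl1 (4 genes, 16.7%) lay at least 2-fold lower. Over all 15192 genes with a ratio or bound, 11.0% were past this limit upwards and 10.1% downwards. Counted over probes, 3 of 31 from members were past it upwards and 4 downwards, beside 11.2% of all 37791 probes upwards and 11.2% downwards. With so few members a gene more or less moves these shares by several points, and nothing sets them apart from the background. With normexp background correction, run on the median spot intensity with an offset of 50, Apc and Fzd6 stayed past 2-fold and Ctnnbip1, Dvl1, Fzd8 and Fzd9 did not, and over all 15096 genes with a value 585 were past it upwards and 496 downwards, against 1667 and 1538 of 15192 without that correction. The median log2 ratio was 0.10 over the 24 members and 0.02 over all genes. For 6 of the 20 members measured on both arrays (30.0%), the log2 ratio was within its scanner error, which held for 31.7% of all genes measured on both arrays.

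**Figure D1:**
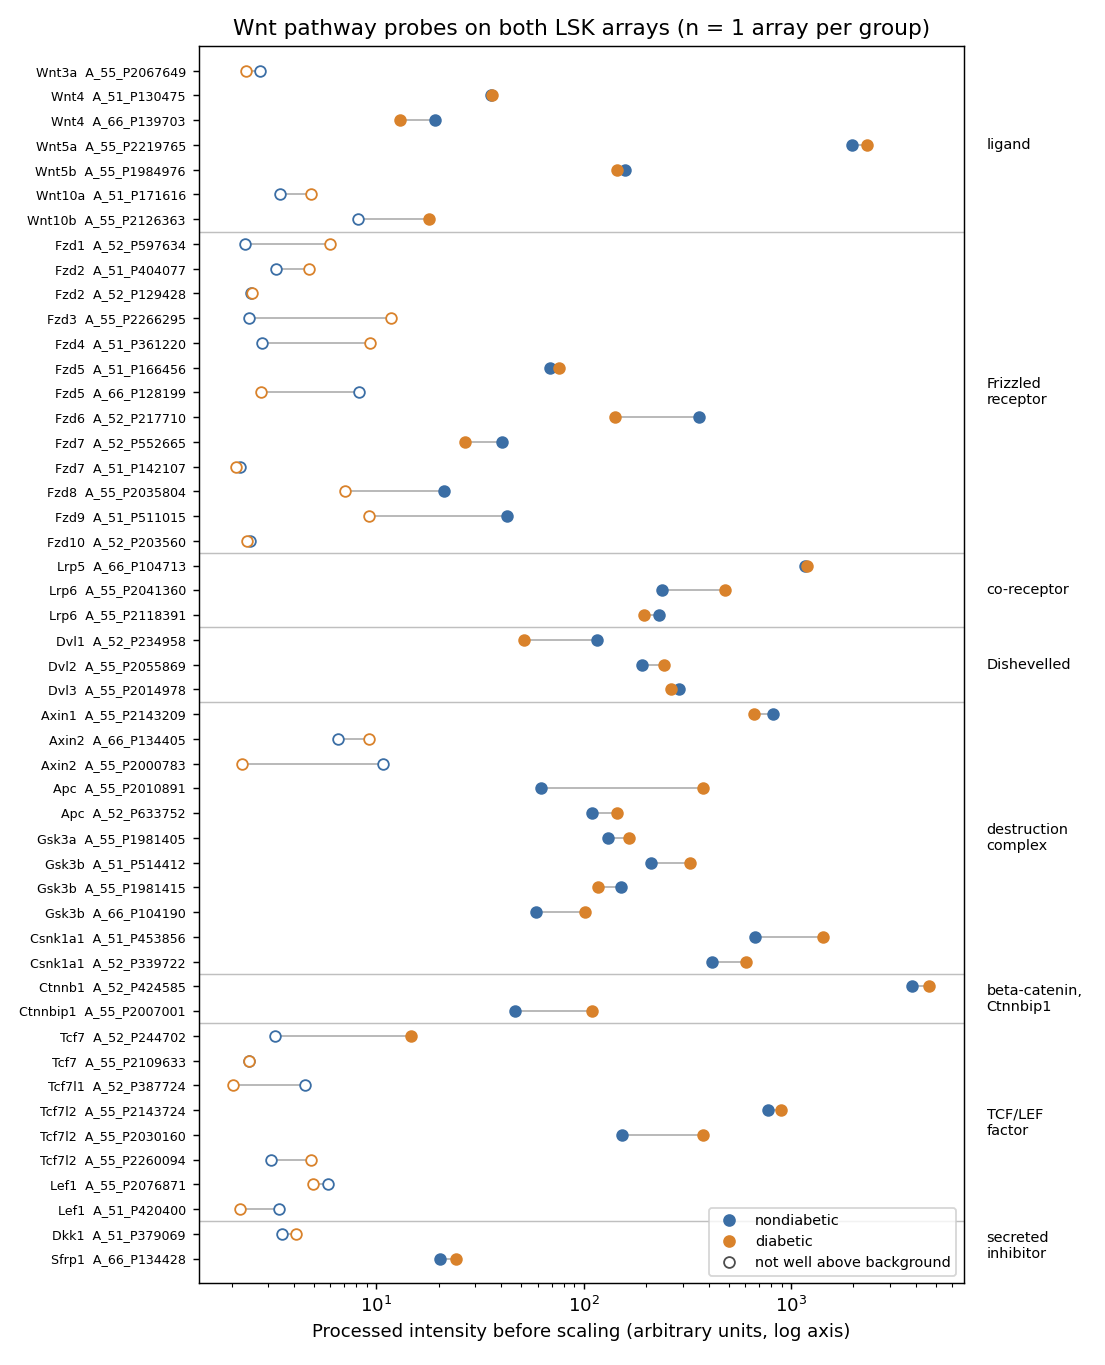
Intensity before scaling (log axis) of every probe of the 35 members on the nondiabetic and the diabetic array, 1 array per group, with probes ordered by role. Filled circles are well above background and open circles are not; 18 of the 49 probes are open on both arrays, and the Apc probe A_55_P2010891 shows the widest gap on this axis among probes filled on both.

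Among the 6 ligand genes, 3 were measured on both arrays, 1 on the diabetic array only and 2 on neither. Of the 4 with a ratio or bound, 0 passed 2-fold, beside 11.0% upwards and 10.1% downwards over all genes. Wnt5a, a ligand best known for signalling that does not use beta-catenin, had intensities of 1979 (nondiabetic) and 2324 (diabetic) on A_55_P2219765, a log2 ratio of 0.11 ± 0.20. Its relative Wnt5b had 158 and 145 (A_55_P1984976), a log2 ratio of -0.24 ± 0.21. For Wnt5a the difference lay inside the scanner's error, and for Wnt5b it was barely outside.

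Wnt4, which acts through either branch depending on the tissue, has a pair of probes for the same transcript. The brighter one (A_51_P130475) had 35.6 and 36.1, a log2 ratio of -0.10 ± 0.24, and the dimmer one (A_66_P139703) had 19.2 and 13.0, a log2 ratio of -0.67 ± 0.39. Both probes gave a negative ratio under 2-fold. Wnt10b, a ligand of the beta-catenin branch that bone marrow cells can make, had 8.18 in nondiabetic cells, not well above background, and 17.9 in diabetic cells (A_55_P2126363), so that it was at least 1.61-fold higher. Wnt3a and Wnt10a, both ligands of the beta-catenin branch, were dim, with 2.75 and 2.36 for Wnt3a (A_55_P2067649) and 3.43 and 4.81 for Wnt10a (A_51_P171616).

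Several Wnt genes lie side by side in the genome, and 4 pairs are direct neighbours in the GRCm38.p6 annotation among protein-coding genes. Wnt10b lies beside Wnt1 on chromosome 15, and the Wnt1 probe A_55_P2001033 had 320 and 366, a log2 ratio of 0.08. Wnt10a lies beside Wnt6 on chromosome 1, and the Wnt6 probe had 34.2 and 24.1, a log2 ratio of -0.62. Wnt3a and its neighbour Wnt9a on chromosome 11 were dim, while beside the dim Wnt3 the Wnt9b probe had 17.2 and 28.6. In 2 of these 4 pairs, 1 gene was measured on both arrays and its neighbour on neither.

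Of the 10 Frizzled genes, which encode the membrane receptors for Wnt, 3 were measured on both arrays, 2 on the nondiabetic array only and 5 on neither. Of the 5 with a ratio or bound, 3 were past 2-fold downwards in diabetic cells and 0 upwards, beside 10.1% and 11.0% over all genes. For Fzd8 and Fzd9 the value is a bound, since they passed the filter through the nondiabetic array alone, where they were higher. Without the filter, Fzd1, Fzd3 and Fzd4 also passed 2-fold, in the opposite direction, so the count is not read as a direction for the receptors as a set. Fzd6, a receptor known for tissue polarity, had 358 in nondiabetic and 142 in diabetic cells (A_52_P217710). Its log2 ratio was -1.45 ± 0.21, or 2.73-fold lower. In bulk RNA, fewer cells of a type that carries a transcript and less of it per cell cannot be told apart.

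Fzd9, a receptor studied in B cell development and bone formation, had 42.5 in nondiabetic cells and 9.20, not well above background, in diabetic cells (A_51_P511015). It was at least 4.58-fold lower. Fzd8 had 21.2 and 7.06 (A_55_P2035804), again above background in nondiabetic cells only, and was at least 2.29-fold lower. Both genes thus passed from above to below the detection limit between the nondiabetic and the diabetic array, and each value rests on 1 spot.

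Fzd7, a receptor of the beta-catenin branch in many stem cell types, had 40.2 and 26.7 (A_52_P552665), a log2 ratio of -0.71 ± 0.25, while its other probe (A_51_P142107) was dim, with 2.20 and 2.11. Fzd5 had 69.0 and 76.2 (A_51_P166456), a log2 ratio of 0.03 ± 0.21, and its other probe (A_66_P128199) was not well above background, with 8.24 and 2.77. Fzd7 was lower by less than 2-fold, and Fzd5 was level within error. The remaining receptors were dim. Fzd1 had 2.33 and 5.94, Fzd2 had 3.27 and 4.72 on its brighter probe and 2.49 and 2.52 on the other, and Fzd10 had 2.45 and 2.38. Fzd3 had 2.42 and 11.7, and Fzd4, also the receptor for Norrin, had 2.81 and 9.30. For Fzd3 and Fzd4 the higher value was on the diabetic array, but neither reached the flag for a signal well above background.

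Lrp5 and Lrp6 are the co-receptors that a Wnt ligand joins to Frizzled, and both were well above background on both arrays. Lrp5 had 1170 and 1199 (A_66_P104713), a log2 ratio of -0.08 ± 0.20. For Lrp6 the probes disagreed, although they are assigned to the same transcript. Probe A_55_P2041360 had 238 and 479, a log2 ratio of 0.89 ± 0.20, and probe A_55_P2118391 had 232 and 195, a log2 ratio of -0.37 ± 0.21. Lrp5 was level within error, and no direction can be given for Lrp6.

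Dishevelled proteins pass the signal from Frizzled to the destruction complex. Dvl1 had 116 in nondiabetic and 51.3 in diabetic cells (A_52_P234958), a log2 ratio of -1.30 ± 0.22, or 2.46-fold lower. Dvl2 had 190 and 243 (A_55_P2055869), a log2 ratio of 0.23 ± 0.21. Dvl3 had 287 and 263 (A_55_P2014978), a log2 ratio of -0.24 ± 0.20. Dvl1 alone of the 3 passed 2-fold (33.3%, beside 10.1% downwards over all genes). Dvl2 and Dvl3 lay just outside their scanner error on opposite sides of 0.

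Of the 6 genes of the destruction complex, 5 were measured on both arrays. By brightest probe, 4 of these had positive log2 ratios, beside 7773 of 15192 over all genes. The 4 include Gsk3b, whose probes were split. Apc, the scaffold that loads beta-catenin into the complex, had the highest log2 ratio of any member. Its brighter probe (A_55_P2010891) was printed on 2 spots, which read 59.5 and 65.0 on the nondiabetic array and 392 and 365 on the diabetic array. The log2 ratio was 2.60 on 1 spot and 2.37 on the other, and 2.49 ± 0.15 on average, or 5.61-fold higher. Both spots were far brighter on the diabetic array. The other Apc probe (A_52_P633752), assigned to the same transcript, had 110 and 145, a log2 ratio of 0.28 ± 0.21. The direction was shared by both probes, but the size was not, with a gap of 2.21 on the log2 scale.

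Csnk1a1, the kinase that primes beta-catenin for Gsk3, had 668 and 1429 on its brighter probe (A_51_P453856), a log2 ratio of 0.98 ± 0.20, and 416 and 608 on the other (A_52_P339722), a log2 ratio of 0.43 ± 0.20. It was higher on both probes, and the brighter one, at 1.97-fold, fell just short of the 2-fold limit. Gsk3b, which phosphorylates beta-catenin for degradation, has 3 probes for 1 transcript. They had 211 and 324 (A_51_P514412), 59.1 and 101 (A_66_P104190), and 152 and 117 (A_55_P1981415), with log2 ratios of 0.50, 0.66 and -0.50, each ± 0.21. So 2 probes were higher and 1 lower in diabetic cells, all by less than 2-fold. The related kinase Gsk3a had 131 and 166 (A_55_P1981405), a log2 ratio of 0.22 ± 0.21.

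Axin1, the scaffold of the complex, had 819 and 663 (A_55_P2143209), a log2 ratio of -0.42 ± 0.20. Axin2, a second scaffold and a gene often read as a target of beta-catenin signalling, was not well above background on either probe or array. Its values were 6.55 and 9.20 (A_66_P134405) and 10.8 and 2.24 (A_55_P2000783), which differ in direction and give no fold.

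Beta-catenin itself (Ctnnb1) was measured on 2 spots of 1 probe (A_52_P424585), with 3834 and 3868 on the nondiabetic array and 4450 and 4798 on the diabetic array. The log2 ratio was 0.15 ± 0.14, at 0.10 and 0.19 on the separate spots. This was 1.11-fold, a difference about as large as the scanner's error. Ctnnbip1, a small protein that keeps beta-catenin from binding TCF/LEF factors, had 46.7 and 110 (A_55_P2007001), a log2 ratio of 1.12 ± 0.22, or 2.18-fold higher in diabetic cells.

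The TCF/LEF factors bring beta-catenin to DNA. Tcf7l2 has 3 probes, each assigned to a different transcript variant. The brightest (A_55_P2143724) had 777 and 893, a log2 ratio of 0.08 ± 0.20, a further probe (A_55_P2030160) had 153 and 377, a log2 ratio of 1.18 ± 0.21 or 2.26-fold higher, and the last (A_55_P2260094) was dim with 3.09 and 4.83. The gene was level by its brightest probe and past 2-fold by another.

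Tcf7, the factor of early T cell development that blood stem cells also use, had 3.23, not well above background, in nondiabetic cells and 14.7 in diabetic cells (A_52_P244702), at least 1.33-fold higher. Its other probe (A_55_P2109633) was dim, with 2.43 and 2.42. Lef1, important in early B and T cells, was not well above background on either probe, with 5.82 and 4.96 (A_55_P2076871) and 3.40 and 2.20 (A_51_P420400). Tcf7l1, often a repressor, was likewise dim, with 4.54 and 2.04 (A_52_P387724). Of the 4 factors, Tcf7l2 was thus the 1 gene measured in nondiabetic as well as diabetic cells.

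Of the secreted inhibitors, Dkk1, which blocks Lrp5 and Lrp6, was not well above background, with 3.52 and 4.08 (A_51_P379069). Sfrp1, which binds Wnt proteins outside the cell, had 20.2 and 24.1 (A_66_P134428), a log2 ratio of 0.14 ± 0.32, so that the observed difference was smaller than the scanner's error.

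**Figure D2:**
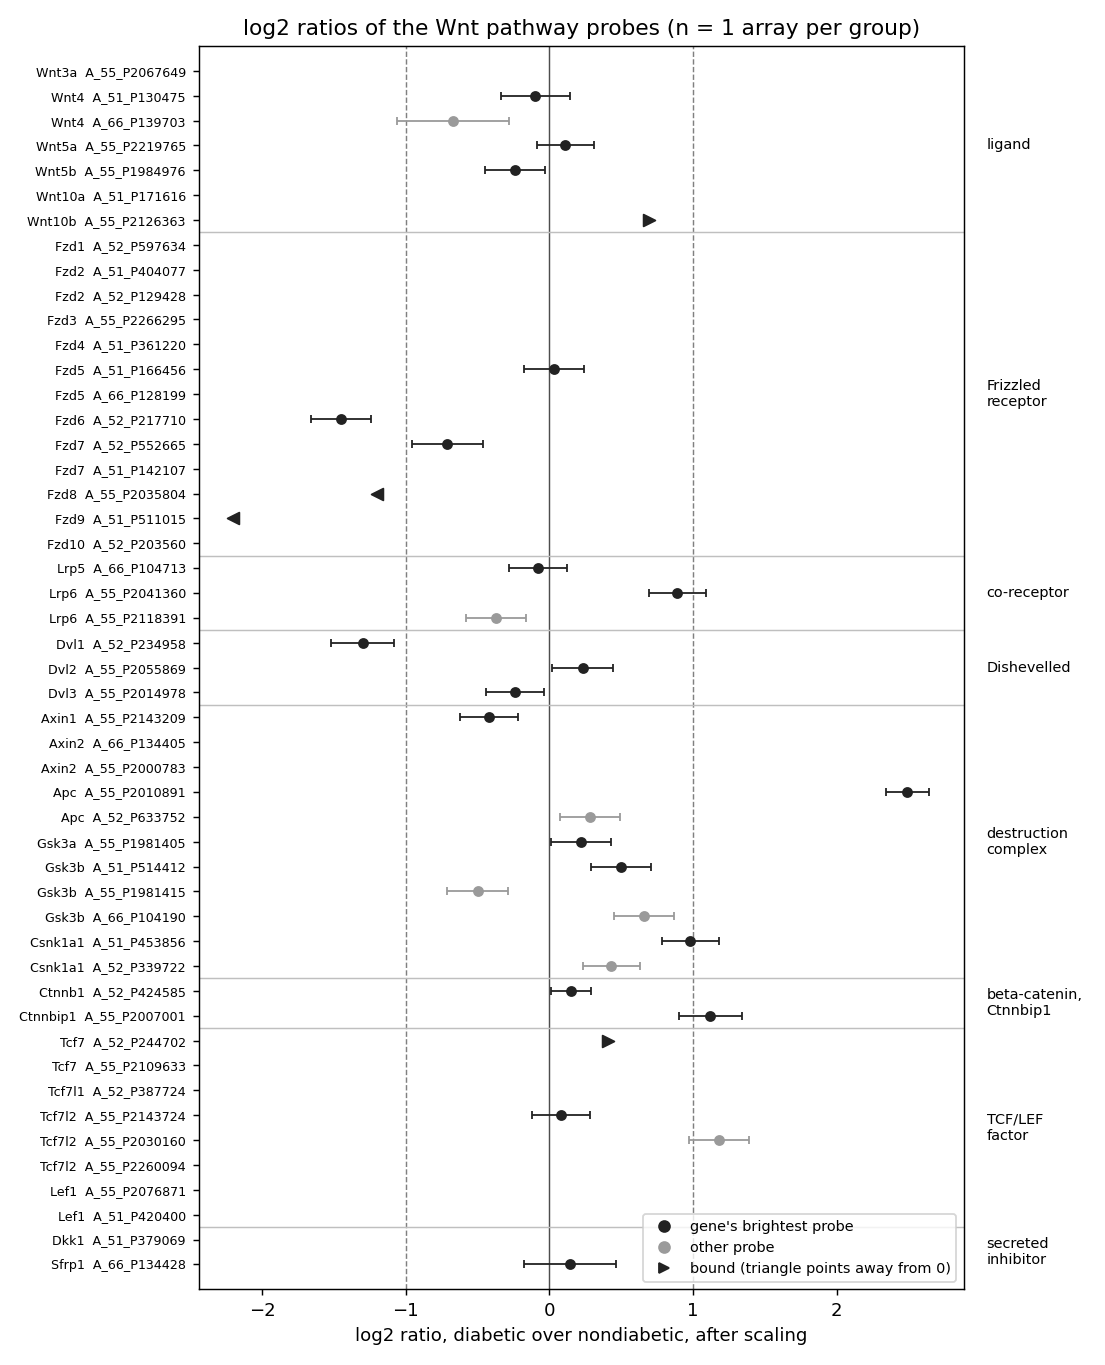
log2 ratio of diabetic over nondiabetic after scaling for every member probe with a ratio (circle, bar ± the scanner's error) or a bound (triangle), 1 array per group, with dashed lines at 2-fold; probes well above background on neither array have no symbol. Apc lies furthest right at 2.49 on its brightest probe and at 0.28 on the other, and Fzd6, Fzd8, Fzd9 and Dvl1 lie left of the lower dashed line.

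Probes for the same gene often differed. Of the 6 members with several measured probes, 2 (Gsk3b and Lrp6) had log2 ratios of opposite sign and 4 (Apc, Gsk3b, Lrp6 and Tcf7l2) had probes more than 2-fold apart. Among all 3846 genes with several such probes, 49.2% had ratios of opposite sign and 40.1% a gap of more than 2-fold. The probes of Csnk1a1 and Wnt4 kept the same sign and lay closer, with gaps of 0.55 and 0.57. Fzd6, Fzd8, Fzd9, Dvl1 and Ctnnbip1 have 1 probe each, so their ratios have no such comparison.

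A further 134 genes of the pathway were read by their brightest probe. Of the 101 with a ratio or bound, 8 were past 2-fold upwards in diabetic cells (7.92%) and 6 downwards (5.94%), beside 11.0% and 10.1% over all genes, and the median log2 ratio was 0.09. Of these 14, Camk2b, Ccnd1, Dact3, Ppard, Wls, Wnt8b and Znrf3 were not past 2-fold with normexp background correction.

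Among the 13 other Wnt ligands, 9 had a ratio or bound. Of these, 1 was past 2-fold upwards (11.1%) and 1 downwards (11.1%), beside 11.0% and 10.1% over all genes. Wnt2b, a ligand of the beta-catenin branch, had 285 in nondiabetic and 64.6 in diabetic cells, a log2 ratio of -2.26 ± 0.21 or 4.78-fold lower. Wnt8b had 12.9 and 28.0, a log2 ratio of 1.01 ± 0.36, close to the limit and with a wide error. Wls, the carrier that takes Wnt proteins to the cell surface, had 206 and 469, a log2 ratio of 1.07 ± 0.20. Ligand genes and the secretion gene thus showed 1 clear lower value and 2 values near the 2-fold limit upwards. Notum, an enzyme that inactivates Wnt proteins, had 705 and 812, a log2 ratio of 0.09 ± 0.20.

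Of the 9 genes for R-spondins, Lgr receptors and receptor turnover, 4 had a ratio or bound and 5 were dim on both arrays, including all of Rspo1 to Rspo4. Znrf3, a ligase that removes Frizzled from the membrane, had 44.4 in nondiabetic cells and 3.32, not well above background, in diabetic cells, at least 4.79-fold lower. Lgr6, a receptor for R-spondins, had 140 and 143, a log2 ratio of -0.08 ± 0.21. Of the other Wnt receptors, Ror1, Ror2 and Ryk were dim on both arrays, and Ptk7 had 114 and 164, a log2 ratio of 0.40 ± 0.21. Of the 4 R-spondin, Lgr and turnover genes with a ratio or bound, Znrf3 was the 1 gene past 2-fold (25.0%, beside 10.1% downwards over all genes). It passed the filter through the nondiabetic array alone, where it was higher.

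Of the 14 other secreted or membrane inhibitors, 9 were dim on both arrays. By brightest probe, 1 of the 5 with a ratio or bound was past 2-fold downwards (20.0%, beside 10.1% over all genes). Kremen1, a receptor for Dkk proteins, had 154 and 28.9 on its brighter probe (A_65_P01415), a log2 ratio of -2.53 ± 0.23, while its other probe (A_55_P2046149) had 3.18, not well above background, and 25.7, at least 2.32-fold higher. The Kremen1 probes thus pointed in opposite directions. Sfrp5, a decoy for Wnt proteins, had 180 and 185, a log2 ratio of -0.08 ± 0.21.

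Among the 22 other cytoplasmic regulators, by brightest probe, 2 were at least 2-fold higher (10.0% of the 20 with a ratio or bound) and 0 lower, beside 11.0% and 10.1% over all genes. Csnk1g3, a kinase that phosphorylates Lrp6, had 174 and 465 on its brighter probe, a log2 ratio of 1.30 ± 0.21, and 197 and 398 on the other, a log2 ratio of 0.90 ± 0.20. Dact3, which binds Dishevelled, had 64.6 and 144, a log2 ratio of 1.04 ± 0.21. Tnks2, which marks Axin for degradation, had 4879 and 7507 on its brighter probe, a log2 ratio of 0.50 ± 0.20, and the opposite sign on the other, -0.51 ± 0.21. Csnk1g1 had 363 and 785 on its brighter probe, 1.99-fold higher and just under the limit. Its other probe (A_65_P13270) had 76.4 and 17.6, a log2 ratio of -2.23 ± 0.29. The probes of Csnk1e had log2 ratios of 0.74, -0.57 and 1.05. Csnk1g3 was thus higher on both of its probes, and those of Tnks2, Csnk1g1 and Csnk1e were split.

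Of the 22 nuclear partners of beta-catenin, 21 had a ratio. By brightest probe, 2 of these were at least 2-fold higher (9.52%) and 0 lower, beside 11.0% and 10.1% over all genes. The 2 were Tle4 and Tle1, which encode co-repressors of the Groucho family. By brightest probe their relatives Tle2, Tle3 and Tle5 had log2 ratios of -0.17, 0.17 and -0.07, while the other Tle2 probe had 1.51. Tle4 had 54.3 and 232 on its brighter probe (A_55_P1998359), a log2 ratio of 1.97 ± 0.21 or 3.93-fold higher, and 110 and 109 on the other (A_55_P2328920), a log2 ratio of -0.13 ± 0.21. Tle1 had 195 and 581 on its brightest probe (A_55_P1968362), a log2 ratio of 1.46 ± 0.20, but 364 and 108 on another (A_52_P330694), a log2 ratio of -1.87 ± 0.21. Its remaining probes were well above background in nondiabetic cells only, at least 4.72-fold and at least 2.68-fold lower, and the mean over its probes was -1.02. Neither co-repressor thus had a direction that its probes shared. Crebbp, a histone acetyltransferase that beta-catenin recruits, had 23552 and 23870, a log2 ratio of -0.10 ± 0.20. Tbl1xr1 was split too. It had 239 and 471 on its brighter probe (0.86 ± 0.20) and 404 and 165 on the other (-1.41 ± 0.21).

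Genes commonly read as targets of the pathway were split. Of 18 such genes, 14 had a ratio or bound, 7 with a positive and 7 with a negative log2 ratio, and the median was 0.02. By brightest probe, 1 was past 2-fold upwards (7.14%) and 2 downwards (14.3%), beside 11.0% and 10.1% over all genes. Ccnd1, which encodes cyclin D1, had 144 and 54.0, a log2 ratio of -1.53 ± 0.21 or 2.89-fold lower. Ppard, a nuclear receptor, had 49.7 and 108, a log2 ratio of 1.0 ± 0.22, at the limit. Cd44, an adhesion receptor, had 12871 and 14501 on its brightest probe, a log2 ratio of 0.05 ± 0.20, and its other probes lay between -1.02 and 0.47. Znrf3 also counts among the targets, and Nkd1, Rnf43, Sp5 and Fosl1 were dim, as was Axin2 among the members.

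In the branches that do not use beta-catenin, planar polarity and calcium signalling, 23 of 28 genes were measured on both arrays. By brightest probe, 1 of the 23 was past 2-fold upwards (4.35%) and 2 downwards (8.7%), beside 11.0% and 10.1% over all genes. Camk2a, a calcium-dependent kinase, had 2002 in nondiabetic and 281 in diabetic cells on its brighter probe (A_55_P2149209), a log2 ratio of -2.95 ± 0.20 or 7.72-fold lower, and 723 and 632 on the other (A_55_P2149215), a log2 ratio of -0.31 ± 0.20. Nfatc2, a transcription factor activated by calcium, had 241 and 52.6 on its brighter probe, a log2 ratio of -2.31 ± 0.21, and 66.6 and 60.5 on the other, a log2 ratio of -0.26 ± 0.22. For both genes the sign was shared by their probes and the size was not. In the same list, the further probes past 2-fold were all upwards, beside 11.2% upwards and 11.2% downwards over all probes. They were those of Rock2 (2.28 ± 0.21), Prkca (2.04 ± 0.22), Mapk9 (1.12 ± 0.21), Mapk8 (at least 2.83-fold higher) and Camk2d (at least 2.18-fold higher). By brightest probe these genes were under 2-fold. In other lists, further probes past 2-fold lay downwards for Csnk1g1, Tbl1xr1 and Tle1 and upwards for Csnk1e and Tle2. No direction is read from such probes. Camk2b had 39.0 and 109, a log2 ratio of 1.36 ± 0.22, and Cdc42, a small GTPase, had 7397 and 9103, a log2 ratio of 0.18 ± 0.20. Of the 6 cadherin adhesion partners, 4 were measured and 0 passed 2-fold, beside 11.0% upwards and 10.1% downwards over all genes. Ctnna1 had 592 and 993, a log2 ratio of 0.63 ± 0.20.

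The label of the cells was read against marker genes. Kit had 4635 in nondiabetic and 4735 in diabetic cells, a log2 ratio of -0.09 ± 0.14, and Ly6a, which encodes Sca-1, had 475 and 701, a log2 ratio of 0.44 ± 0.20. All 12 genes listed for stem and early progenitor cells were well above background on both arrays, with summed intensities of 14867 and 18693. Such sums add the brightest probe of each gene and do not rank genes by abundance. Cd34 had 3888 and 4902 on its brighter probe and 1793 and 1824 on the other. Of the 12 genes, 10 had a positive and 2 a negative log2 ratio, with a median of 0.27, beside 7773 positive and 7419 negative over all genes. Mecom, a stem cell transcription factor, was the 1 gene of these past 2-fold by brightest probe (8.33%, beside 10.1% downwards over all genes). It had 182 and 86.1 and a log2 ratio of -1.20 ± 0.21 on its brighter probe, while its other probe had 41.0 and 39.9, a log2 ratio of -0.16 ± 0.24. Another probe of Erg, with 11.8, not well above background, and 34.4, was at least 2.68-fold higher, while its brightest had 337 and 472. The markers of the sort were thus present on both arrays.

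Markers of other cell types were present too, and their part in the Wnt values was not tested. Of 12 T and NK cell genes, 9 were well above background on the nondiabetic and 8 on the diabetic array, with sums of 5124 and 4415. Cd8a and Ncr1 were dim on both arrays, and Cd3d and Cd3g were above background in nondiabetic cells only, each at least 2.74-fold lower. Of 8 B cell genes, 5 and 6 were above background, with sums of 756 and 1150, 535 and 811 for Vpreb1, and Ebf1 and Ms4a1 dim on both. The difference in the T and NK cell sum was nearly all in the brighter probe of Nkg7 (3291 and 2582), whose other probe had 103 and 204, a log2 ratio of 0.87 ± 0.21. Of the 10 T and NK cell genes with a ratio or bound, 1 was past 2-fold upwards, Il7r with 43.6 and 98.8 (1.06 ± 0.22), and 2 downwards, Cd3d and Cd3g. A negative log2 ratio was found for 8 of the 10. Of these, Cd2 (-0.07 ± 0.12), Cd4 (-0.05 ± 0.20) and Lck (-0.06 ± 0.20) lay within scanner error. The other Cd4 probe, on 10 spots, had a log2 ratio of 0.30 ± 0.07. Of the 6 B cell genes with a ratio or bound, 5 had a positive log2 ratio and 2 (33.3%) were past 2-fold, both upwards. These were Cd79a with 39.3 and 121 (1.51 ± 0.22) and Igll1 with 3.64, not well above background, and 37.5 (at least 3.39-fold higher). Over all 15192 genes with a ratio or bound, 11.0% were past 2-fold upwards and 10.1% downwards, with 7773 positive and 7419 negative log2 ratios. With so few genes per list, these counts are not read as a direction for a cell type.

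All 9 granulocyte and monocyte genes with a probe were above background on both arrays, with sums of 44425 and 43200. Most of these came from the brightest probe of Itgam (34686 and 35189), whose protein, CD11b, belongs to common lineage panels used to deplete mature cells. The other Itgam probes had 284 and 142, and 111 and 49.2. Of the 9 genes, 7 had a negative log2 ratio and the median was -0.34, with 2731 and 1851 for Mpo (-0.68 ± 0.20). By brightest probe S100a8, with 52.2 and 20.4 (-1.48 ± 0.26), was the 1 gene past 2-fold (11.1%, beside 10.1% downwards over all genes). The 2 positive ones were Elane with 192 and 295 (0.50 ± 0.21) and S100a9 with 548 and 637 (0.10 ± 0.20). For 3 of the 9, Itgam (-0.10), Prtn3 (-0.10) and S100a9, the ratio lay within scanner error. Of the erythroid genes, Ermap had 3425 and 3298 on its brightest probe, 59.1 and 22.3 on another (-1.52 ± 0.25), and 6.45, not well above background, and 32.3 on the last (at least 2.92-fold higher). Hba-a1 had 1984 and 4967, a log2 ratio of 1.21 ± 0.20. The log2 ratio was negative for Ermap on its brightest probe (-0.17), Car1 (-0.24), Epor (-0.20) and Klf1 (-0.30). Of 11 genes of stroma and endothelium, 6 were above background on each array, with sums of 1643 and 2324. Kdr had 844 and 848 on its brighter probe and was dim on the other (3.00 and 2.61), Pecam1 had 162 and 936, and Cdh5, Col1a1, Col3a1 and Pdgfra were dim on both. Pecam1 differed by more than the whole sum did. Of the 6 genes of stroma and endothelium with a ratio or bound, 5 had a negative log2 ratio, among them Emcn with 111 and 49.2 (-1.30 ± 0.22). Also among them, Kdr (-0.11 ± 0.20) and Vwf (-0.12 ± 0.21) lay within scanner error. Over all 15192 genes with a ratio or bound, 7419 had a negative log2 ratio.

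RefSeq promoter sequences (GRCm38.p6, 300 bases around each start) were found for 23 of the 35 members, 32 promoters in all. They were searched on both strands for CTTTGAT and CTTTGTT, the core letters that TCF/LEF factors bind. At least 1 match was found in 4 of 32 member promoters (12.5%) and in 9.33% of all 32851 promoters of the table. A match is a description of letters, and the absence of 1 says only that they are not in this window. The 4 promoters with a match are shown first, with the matching letters in capitals, read 5′ to 3′ on the gene's strand. They are Wnt5b at chr6:119449337-119449636 (minus strand), Fzd7 at chr1:59481897-59482196 (plus strand, match on the opposite strand), Tcf7l2 at chr19:55895071-55895370 (plus strand) and Dkk1 at chr19:30549447-30549746 (minus strand).
Wnt5b: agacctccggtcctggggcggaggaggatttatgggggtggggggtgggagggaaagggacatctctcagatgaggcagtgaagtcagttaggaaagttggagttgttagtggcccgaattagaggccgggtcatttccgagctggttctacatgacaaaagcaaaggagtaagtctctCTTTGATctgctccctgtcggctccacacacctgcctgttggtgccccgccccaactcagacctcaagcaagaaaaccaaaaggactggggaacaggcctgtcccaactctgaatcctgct
Fzd7: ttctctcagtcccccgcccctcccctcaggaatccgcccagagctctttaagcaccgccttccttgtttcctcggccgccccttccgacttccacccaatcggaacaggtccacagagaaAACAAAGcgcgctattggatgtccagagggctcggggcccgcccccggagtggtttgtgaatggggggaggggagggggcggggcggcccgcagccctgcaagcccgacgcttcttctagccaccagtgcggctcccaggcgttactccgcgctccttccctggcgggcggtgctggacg
Tcf7l2: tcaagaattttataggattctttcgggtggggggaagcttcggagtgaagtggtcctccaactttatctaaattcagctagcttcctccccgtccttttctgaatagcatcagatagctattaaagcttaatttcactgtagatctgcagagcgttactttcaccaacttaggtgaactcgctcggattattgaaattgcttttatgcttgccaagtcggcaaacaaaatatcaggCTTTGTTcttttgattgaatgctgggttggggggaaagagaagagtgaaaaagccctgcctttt
Dkk1: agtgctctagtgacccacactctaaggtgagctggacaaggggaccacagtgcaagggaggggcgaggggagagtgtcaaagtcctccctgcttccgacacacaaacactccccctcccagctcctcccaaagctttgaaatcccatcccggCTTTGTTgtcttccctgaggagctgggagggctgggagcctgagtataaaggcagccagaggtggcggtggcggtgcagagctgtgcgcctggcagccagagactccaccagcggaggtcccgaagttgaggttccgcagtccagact

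None of these 4 genes passed 2-fold by its brightest probe. Of the 6 members that did, Fzd9, Dvl1 and Ctnnbip1 had a promoter in the table, and these are shown beside the others for that reason. They held 0 matches and so carry no capitals. Fzd9 lies at chr5:135250998-135251297 (minus strand), Dvl1 at chr4:155847152-155847451 (plus strand), and Ctnnbip1 has starts at chr4:149517991-149518290 and chr4:149544867-149545166 (plus strand).
Fzd9: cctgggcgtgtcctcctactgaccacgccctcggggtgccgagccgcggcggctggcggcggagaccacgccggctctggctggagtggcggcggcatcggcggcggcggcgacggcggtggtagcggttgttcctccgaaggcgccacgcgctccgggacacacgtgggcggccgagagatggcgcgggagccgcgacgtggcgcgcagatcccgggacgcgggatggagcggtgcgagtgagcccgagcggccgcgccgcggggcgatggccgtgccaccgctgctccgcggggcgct
Dvl1: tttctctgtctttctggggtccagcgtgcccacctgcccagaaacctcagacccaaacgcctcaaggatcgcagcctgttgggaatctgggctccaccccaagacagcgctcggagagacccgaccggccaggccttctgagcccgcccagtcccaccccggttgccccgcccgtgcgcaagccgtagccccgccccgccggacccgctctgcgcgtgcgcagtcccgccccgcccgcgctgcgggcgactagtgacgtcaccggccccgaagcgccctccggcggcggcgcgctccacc
Ctnnbip1 upstream start: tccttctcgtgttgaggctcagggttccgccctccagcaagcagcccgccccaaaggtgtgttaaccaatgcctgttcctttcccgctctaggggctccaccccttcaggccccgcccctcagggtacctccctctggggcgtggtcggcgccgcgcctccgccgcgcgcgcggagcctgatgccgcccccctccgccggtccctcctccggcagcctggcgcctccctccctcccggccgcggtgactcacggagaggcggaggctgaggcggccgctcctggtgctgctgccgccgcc
Ctnnbip1 downstream start: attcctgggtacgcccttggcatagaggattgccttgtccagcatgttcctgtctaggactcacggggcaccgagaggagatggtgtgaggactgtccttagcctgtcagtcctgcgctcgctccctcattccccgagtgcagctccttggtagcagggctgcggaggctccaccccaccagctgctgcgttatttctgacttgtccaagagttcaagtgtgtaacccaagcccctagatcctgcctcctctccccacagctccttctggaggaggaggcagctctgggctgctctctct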

How the data were processed

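The authors deposited, for each of the 2 arrays, scanner output of Agilent Feature Extraction 11.5.1.1 (per the file headers, grid build mm9), holding processed intensity corrected for background within the array. A deposited table of processed intensities equalled those values times 1 constant per array (log2 3.48 and 3.35, column medians 332 and 329); why these constants were chosen is not given in the sources used here, and the direction of ratios follows the sample labels.

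Spots flagged as outliers on either array were removed (314 of 59305), log2 values were scaled to the 75th percentile of non-control spots, and spots of a probe were averaged. Transcript identifiers were matched to the GRCm38.p6 RefSeq gene table, which named 53.7% of non-control spots and 28319 of 55661 probes. A gene was read by its brightest probe, the one of highest mean log2 signal. The scanner's signal error was carried to the log2 ratio. The limit was 2-fold, with no test. Marker sums add brightest-probe intensities before scaling.

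The text names all members, and from each further pathway list the genes past 2-fold and the gene with the highest mean signal. Pathway genes named outside this rule were named after their values were seen. They are genomic neighbours, relatives (Tle2, Tle3 and Tle5), dim genes, and genes with a further probe past 2-fold. The last come from the planar polarity and calcium branch, the cytoplasmic regulators and the nuclear partners. The marker genes singled out were also named after their values were seen. The members and lists were chosen with earlier results of these data known. Ly6g and Hbb-bs had no matched probe. The erythroid marker list is not reported here as a whole, so it has no count or sum, for a reason unrelated to its values. The alternatives were normexp (offset 50, on median spot and background intensity), quantile normalization, median centring, loess, no filter, only probes above background on both arrays, a floor, the deposited table, and the mean over a gene's probes. The steps were tested on simulated data, with changes put only into bright probes that were well above background on both arrays. Bounds and changes in dim probes were not covered. Python 3.11.15, numpy 2.4.6, pandas 2.3.3, matplotlib 3.10.9, R 4.3.3 and limma 3.58.1 were used.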

Additional observations from a re-analysis of the deposited data

How the results depend on the processing

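The 6 members past 2-fold all stayed past it in the same direction under quantile normalization, median centring, loess and the deposited table. Median centring and the deposited table shift every log2 ratio by the same small amount, so they could move only genes close to the limit. Of these 6, the filter settings and the floor could move only Fzd8 and Fzd9, whose bounds the floor repeats, and the mean over probes only Apc, which then had 1.38 (2.49 before). No member with a value under an alternative changed sign in any of the 9. These were 20 members with only probes above background on both arrays, and the 24 with a ratio or bound otherwise. Under normexp 2 of the 6 stayed, Apc and Fzd6, with 1 member higher and 1 lower by brightest probe (2 and 4 before), beside 585 higher and 496 lower of 15096 genes (1667 and 1538 of 15192 before), 1 probe higher and 1 lower (3 and 4 before), and 3 further pathway genes higher (8 before) and 4 lower (6 before); this setting changes the correction, the input and the offset together, and the cause was not tested. Under median centring Csnk1a1 passed 2-fold as well. With no filter on dim probes, 7 members were at least 2-fold higher and 5 lower, 8 member probes higher and 7 lower, and 13 further pathway genes higher and 8 lower, beside 2433 higher and 2275 lower of 21360 genes, since dim probes then count. With only probes above background on both arrays, 2 members and 2 member probes were at least 2-fold lower, because the bounds of Fzd8 and Fzd9 are left out. The floor put the median over members at -0.14 (0.10 before), over all 35 genes, and the median of all genes at -0.139 (0.02 before). Of the 14 further pathway genes past 2-fold, 7 stayed under normexp, without Camk2b, Ccnd1, Dact3, Ppard, Wls, Wnt8b and Znrf3, 13 with only probes above background on both arrays, without Znrf3, 12 with the deposited table, without Ppard and Wnt8b, and 11 with the mean over probes, without Kremen1, Tle1 and Tle4, where Tle1 turned to -1.02. Some settings also brought further pathway genes past 2-fold. The counts were 6 higher and 7 lower with the deposited table, 8 and 6 with the mean over probes, and 9 and 6 under median centring (8 and 6 before). Low signal limits the 11 members dim on both arrays, which have no ratio. No paired analysis was possible because a group is 1 array and nothing was tested, and leaving out a replicate was not possible. The mean spot intensity was not used for normexp.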
